A study of Bos taurus with 8 samples.

Results

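The genes described here are 34 that repair DNA or signal its damage, by homologous recombination, by the Fanconi anemia pathway for crosslinks between strands, by mismatch repair, or through the checkpoint kinases of the S and G2 phases. They were taken by symbol from a list, and each of the 34 was found once among the 26804 genes of the table. Granulosa cells, the somatic cells around the oocyte, divide rapidly as an antral follicle grows under FSH. In dividing cells these genes serve the copied genome: homologous recombination restores broken or stalled forks from the sister chromatid, Fanconi proteins unhook crosslinks, and mismatch repair corrects errors of the polymerase. Many of them are transcribed mostly in S and G2 phase, whereas others are made throughout the cycle.

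The cells were aspirated by ovum pick-up from non-lactating multiparous beef cows, named Angus in the sample labels and crossbred in the methods, whose age is not given. All cows received a progesterone device (CIDR), a GnRH analog and FSH before each collection, so both groups carry this treatment, and the seasons differ in that one collection was made in summer (August) and the other in winter (January in the labels, February in the methods). The cells were pelleted from the fluid with no sorting described, polyadenylated RNA was sequenced, and each library holds pooled RNA of 2 cows. By the methods the same group of cows served both seasons, but which pools share cows across seasons is not given. Summer has 4 libraries, numbered 1, 2, 3 and 5, winter has 4 that are numbered 1, 3, 4 and 5, and since each season was 1 session, season and session cannot be told apart. Levels are given as scaled TPM, that is, read abundance per transcript length as a share of a library total of 1000000, recomputed without the 13 protein-coding mitochondrial genes and with a trimmed mean of M-values (TMM) factor per library. Season was tested with limma on log2(scaled TPM + 1) over 13046 genes, and all log2 fold changes are on that scale, summer minus winter, which understates the change of genes near 1 scaled TPM. A gene passed at a Benjamini-Hochberg adjusted p of at most 0.05 over all those genes, and was called at a 2-fold change in addition. The number of reads per library is unknown, so that no counting error can be given.

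Several features of the libraries moved with season. The mitochondrial genes held 50.7 to 87.7% of TPM in summer and 85.1 to 92.0% in winter, with summer replicate 3 inside the winter range. Of 12 granulosa cell markers, 8 passed higher in summer and none lower. Of the 12, 2 had a log2 fold change below 0, limma giving 1 of these at an unadjusted p under 0.05. The summed level of the markers was 22487.5 to 62245 scaled TPM in summer and 11798.6 to 16354.4 in winter. *FSHR*, the FSH receptor, ranged from 75.3 to 173 scaled TPM in summer and from 43.7 to 64.4 in winter, so the labelled cell type was present in every library. Of 17 leukocyte markers, 11 of 15 tested were lower in summer, their summed level being 25.5 to 95.5 scaled TPM in summer and 256 to 463 in winter. Of 15 oocyte markers, 5 of 9 tested were higher in summer, the sum being 14.1 to 22.7 scaled TPM in summer and 2.12 to 7.59 in winter, while *DAZL* was listed at 0 in every library and 8 of the 15 in every winter library. Genes were tested if above a low-level threshold in all libraries of either season, which *KPNA7*, *ZP2*, *ZP3* and *MOS* met in summer alone. The share of tested oocyte markers that passed therefore depends on that filter. Lower in summer were also 5 of 9 tested fibroblast markers, 4 of 9 epithelial markers and 3 of 3 red blood cell markers, with 1 higher in each of the first 2 lists, and no theca (6 tested) or endothelial marker (7) passed, limma giving 1 of these 13 at an unadjusted p under 0.05. In bulk RNA, fewer cells of a type and less RNA per cell cannot be told apart, and the part of these shifts in the results below was not tested.

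Among the repair and checkpoint genes, the strand invasion gene *RAD54L*, the Fanconi pair (*FANCD2* and *FANCI*), the BLM cofactors (*RMI1* and *RMI2*), the exonuclease *EXO1*, the kinase *CHEK1* and the glycosylase *NEIL3* were higher in summer, by 0.82 to 1.32 on the log2 scale. Of the 34, 33 passed the filter on low values and were tested, and 31 of these were above the zFPKM threshold in all 8 libraries. The filter kept genes above that threshold in all libraries of either season, which *NEIL3* and *RAD54B* met in summer alone. *FANCB*, the X-linked subunit of the Fanconi core complex, was not tested, being at 0 to 1.95 scaled TPM in summer and listed at 0 in 3 of the 4 winter libraries. In all, 8 genes passed higher in summer, which is 24.2% of those tested, against 11.0% of all 13046 genes (21.2% in either direction) and 8.68% of the 8530 genes within the level range of the set. No gene of the set passed lower, against 10.2% of all genes. At an unadjusted p under 0.05 limma gave 19 of the 33 higher, against 2498 of all 13046 genes (19.1%), and 0 lower. The genes called at 2-fold were 4 of the 33 (*NEIL3*, *RMI1*, *EXO1* and *RMI2*), against 801 of all 13046 genes (6.14%). None was called lower, against 6.67% of all genes. The median log2 fold change was 0.65 over the 33 genes and 0.03 over all tested genes, and all 33 log2 fold changes were above 0, as were 52.2% of all. In 11 genes every summer library lay above every winter library and in none below, whereas over all genes the seasons were apart in 24.3% (1698 higher and 1468 lower), and in the other 22 tested genes of the set the seasons overlapped.

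**Figure D1:**
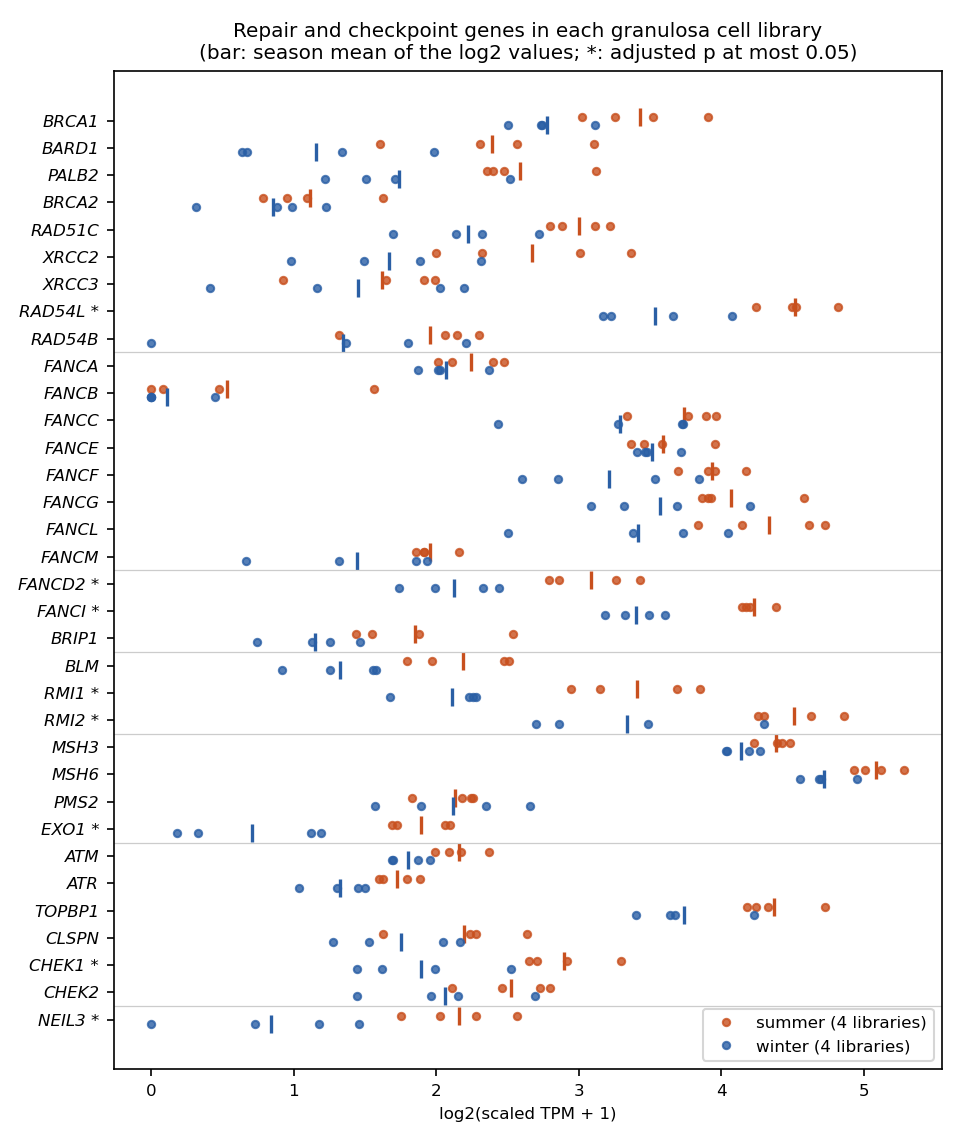
Level of each of the 34 repair and checkpoint genes as log2(scaled TPM + 1) on the x axis, 1 point per library (4 in summer and 4 in winter), with the season mean as a vertical bar and an asterisk for genes past the adjusted p. Genes are ordered by role. *MSH6* is highest in both seasons, and the seasons separate fully for 11 genes, *FANCI* and *RMI1* among them.

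**Figure D2:**
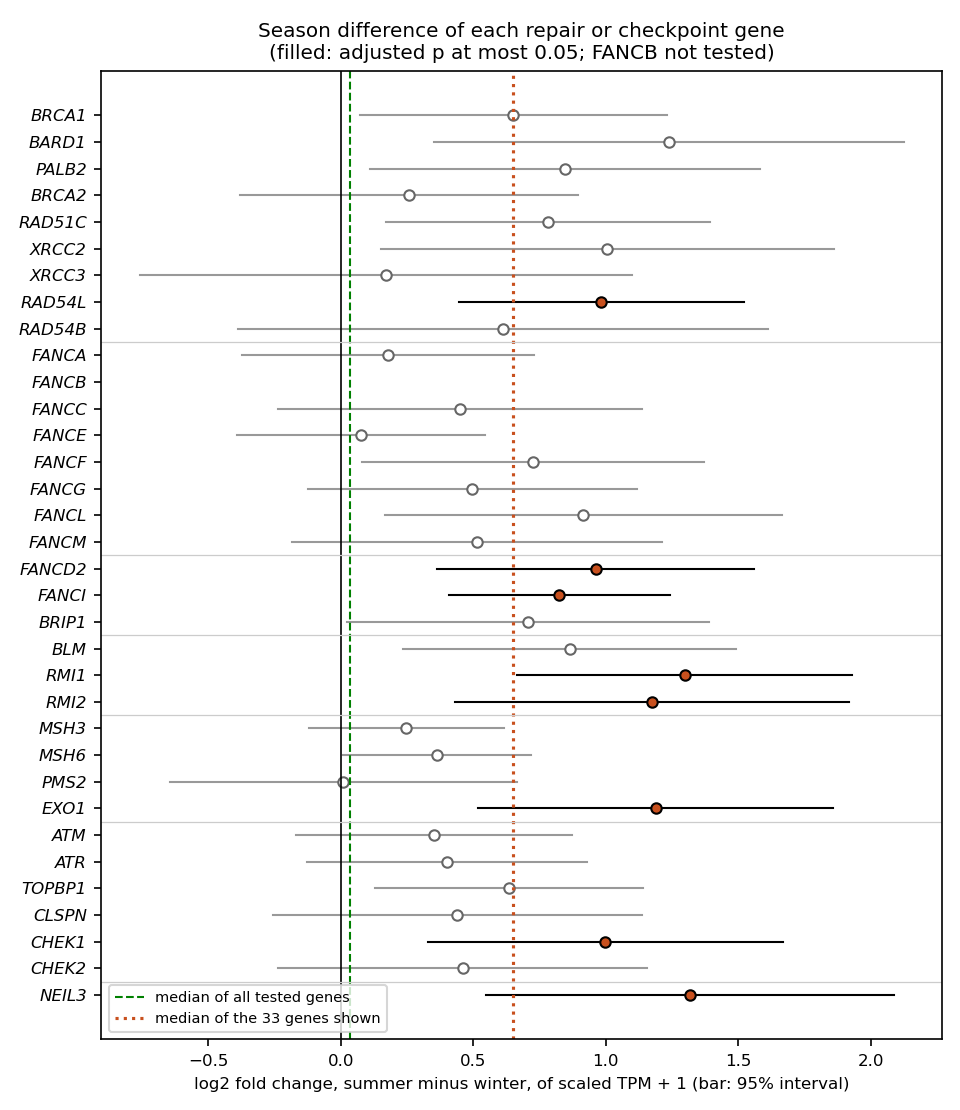
Log2 fold change of each tested gene on the x axis (summer minus winter, on scaled TPM + 1) with its 95% interval from limma, filled where the adjusted p is at most 0.05. All 33 points lie above 0, from 0.01 for *PMS2* to 1.32 for *NEIL3*, and the median of the genes shown (0.65, dotted) lies above that of all tested genes (0.03, dashed).

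The count depended on the libraries. Without summer replicate 1, which had the lowest mitochondrial share, 2 of 33 passed (6.06%, against 5.74% of all genes in that fit), namely *FANCI* and *RMI1*, while the median of the set was 0.69. Leaving out summer replicate 3 gave 5, a share close to that of all genes in the same fit (15.2% against 11.9%), and leaving out winter replicate 1 gave 5 (15.2% against 8.72%). Leaving out replicate 5 of summer gave 4 (12.1% against 6.85%), as did replicate 5 of winter (12.1% against 7.34%), and leaving out winter replicate 3 gave 12 (36.4% against 9.46%). Adding the mitochondrial share to the model as a covariate, 1 passed (*RMI1*), as did 0.820% of all genes, with a median of 0.80 and standard errors 1.41 times as large. On the deposited TPM, with no rescaling, all 33 passed higher, but so did 61.0% of all genes, and the medians were 1.01 for the set and 0.89 for all. *FANCI* and *RMI1* were the genes that passed whichever single library was left out.

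**Figure D3:**
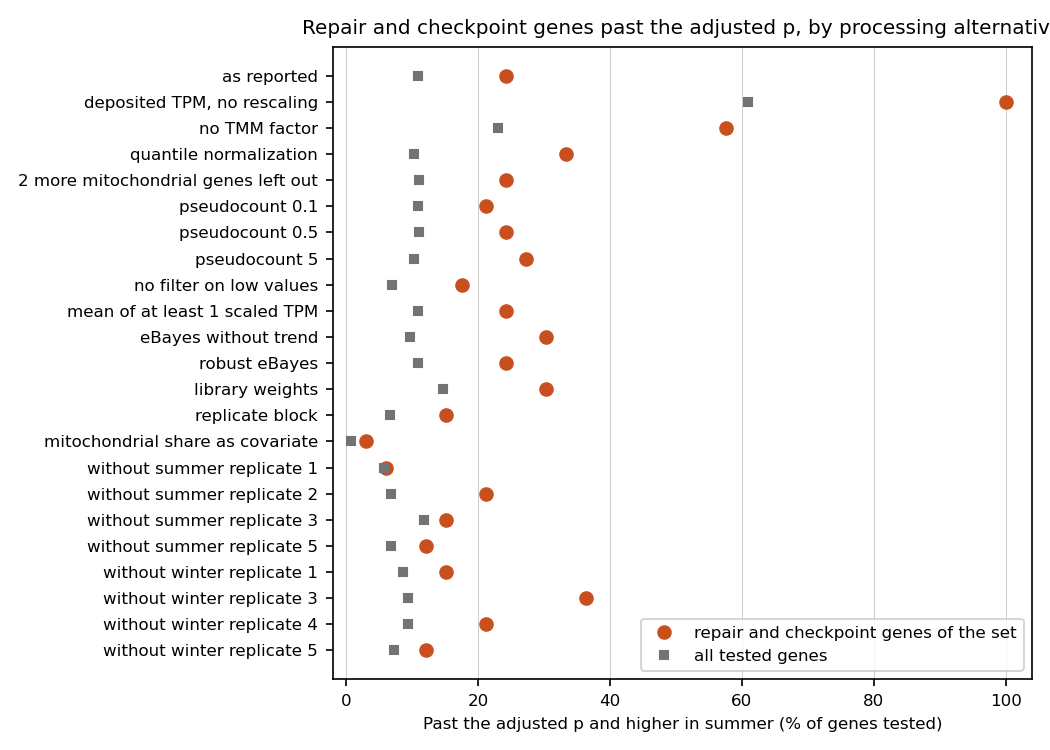
Share of tested genes past the adjusted p and higher in summer on the x axis in percent, for the repair and checkpoint set (circles) and for all tested genes (squares), under the processing reported and each of 22 alternatives. The set lies furthest right on the deposited TPM (33 of 33 genes) and comes down to the level of all genes without summer replicate 1 (2 of 33).

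Of the 9 homologous recombination genes, 1 passed, *RAD54L*, a share of 11.1% that is close to the 11.0% of all tested genes. This motor protein of the SWI2/SNF2 family works in strand invasion. *RAD54L* had 21.5, 22.0, 27.2 and 17.9 scaled TPM in the summer libraries, in the order 1, 2, 3 and 5, and 8.38, 15.9, 11.7 and 7.99 in the winter libraries, in the order 1, 3, 4 and 5, as below. All 4 summer libraries lay above all 4 winter libraries, with means of 22.1 ± 3.80 (SD, n = 4) and 11.0 ± 3.66 (SD, n = 4) (log2 fold change 0.98, standard error 0.24, limma adjusted p = 0.0181). It no longer passed without summer replicate 1 (adjusted p = 0.0503) or winter replicate 5 (0.0509). Its paralog *RAD54B* had 3.43, 1.49, 3.18 and 3.92 scaled TPM in summer and 2.49, 3.63, 0 and 1.58 in winter, with the winter values reaching from 0 to close to the highest summer one (log2 fold change 0.61, standard error 0.45, limma adjusted p = 0.361).

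*BRCA1*, the ubiquitin ligase that promotes resection of broken ends, had 8.54, 7.13, 14.0 and 10.5 scaled TPM in summer and 4.68, 7.67, 5.70 and 5.64 in winter. Its winter replicate 3 lay above summer replicate 2, and the difference missed the threshold (log2 fold change 0.65, standard error 0.26, limma adjusted p = 0.0994, 95% interval 0.07 to 1.23). *BARD1*, the obligate partner of BRCA1, had 3.93, 2.03, 7.61 and 4.92 scaled TPM in summer and 0.553, 2.96, 0.592 and 1.52 in winter. Winter replicate 3 again lay within the summer range, and at a mean of 4.62 ± 2.32 (SD, n = 4) against 1.41 ± 1.13 (SD, n = 4) the difference just missed the threshold (log2 fold change 1.24, standard error 0.40, limma adjusted p = 0.0505). It passed without summer replicate 2 (adjusted p = 0.0392) or winter replicate 3 (0.0267).

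*PALB2*, which bridges BRCA1 and BRCA2, had 4.26, 4.57, 4.11 and 7.69 scaled TPM in summer and 2.28, 4.73, 1.33 and 1.84 in winter, and winter replicate 3 lay above 3 of the summer libraries (log2 fold change 0.85, standard error 0.33, limma adjusted p = 0.0933). Without winter replicate 3 it passed (adjusted p = 0.0330). *BRCA2*, a mediator of strand exchange, was among the lowest genes of the set, at 0.722 to 2.08 scaled TPM in summer and 0.243 to 1.34 in winter, and its interval of -0.38 to 0.90 included 0. *RAD51C*, which acts in strand exchange, had 7.65, 5.94, 8.31 and 6.36 scaled TPM in summer and 5.59, 4.0, 3.40 and 2.24 in winter. Its seasons did not overlap, but the adjusted p was 0.0675 (0.0439 without winter replicate 1). *XRCC2* ranged over 2.99 to 9.33 in summer and over 0.972 to 3.97 in winter (log2 fold change 1.01, limma adjusted p = 0.0873). *XRCC3* was at 0.894 to 2.97 and 0.328 to 3.57 scaled TPM, with the highest value in winter replicate 5 (log2 fold change 0.17, 95% interval -0.76 to 1.10). In the annotation used for overlaps, *RAD51C* shares 11840 bases with *TEX14*, *XRCC3* 2332 with *KLC1* and *RAD54B* 10735 with *FSBP*. *BRCA2* shares 30797 with a long noncoding RNA, whereas *RAD54L* shares only 42 with *LRRC41*. The strand setting of the counting is not given, so reads from the shared stretches cannot be told apart.

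None of the 7 tested genes of the Fanconi core complex, the ubiquitin ligase that recognises crosslinked DNA, passed (median log2 fold change 0.50), and in each of them the seasons overlapped. Over all tested genes 11.0% passed higher, and the seasons were apart in 24.3%. By the limma test at an unadjusted p under 0.05, 2 were higher (*FANCL* and *FANCF*) and 0 lower. *FANCL*, the catalytic subunit, came closest with 25.5, 23.5, 16.7 and 13.3 scaled TPM in summer and 4.66, 15.5, 9.42 and 12.3 in winter. Summer replicates 3 and 5 and winter replicate 3 lay close together, and the adjusted p was 0.0783 (log2 fold change 0.92, standard error 0.34), or 0.0462 without winter replicate 3. *FANCF*, an adaptor subunit, was at 12.0 to 17.1 scaled TPM in summer and 5.06 to 13.4 in winter (log2 fold change 0.73, limma adjusted p = 0.10, and 0.0400 without winter replicate 4). *FANCG* had a log2 fold change of 0.50 (95% interval -0.12 to 1.12), *FANCC* of 0.45 (-0.24 to 1.14) and *FANCM*, the translocase that anchors the complex to DNA, of 0.52 (-0.18 to 1.21). *FANCA* and *FANCE* differed least, at 3.79 ± 0.731 (SD, n = 4) against 3.23 ± 0.650 (SD, n = 4) and 11.2 ± 2.30 (SD, n = 4) against 10.5 ± 1.13 (SD, n = 4) scaled TPM, and their intervals, -0.37 to 0.73 and -0.39 to 0.54, exclude a 2-fold change on this scale. *FANCL* overlaps *VRK2* and *FANCA* overlaps *ZNF276* in the annotation.

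Both genes of the pair that the core complex ubiquitinates passed higher in summer, as did 11.0% of all tested genes. *FANCI* had 17.1, 16.7, 19.9 and 17.4 scaled TPM in summer and 10.3, 11.2, 8.07 and 9.02 in winter. The 4 summer values lay within a narrow band above all winter values, with means of 17.8 ± 1.44 (SD, n = 4) and 9.64 ± 1.37 (SD, n = 4) (log2 fold change 0.82, standard error 0.19, limma adjusted p = 0.0131), and the adjusted p was at most 0.0413 with any single library left out and 0.102 with the mitochondrial share as a covariate. *FANCD2*, its partner on DNA, had 6.26, 5.92, 9.76 and 8.60 scaled TPM in summer and 2.97, 4.02, 2.34 and 4.41 in winter. Its seasons did not overlap (log2 fold change 0.96, standard error 0.27, limma adjusted p = 0.0300), but it missed the threshold with any of summer replicates 1, 3 and 5 and winter replicates 1 and 4 left out, at adjusted p values of 0.0590 to 0.0809. *BRIP1*, the helicase also known as FANCJ, had 2.68, 1.92, 4.82 and 1.71 scaled TPM in summer and 1.38, 0.672, 1.18 and 1.76 in winter. Winter replicate 5 lay above summer replicate 5, and summer replicate 3 was far above the rest (log2 fold change 0.71, standard error 0.31, limma adjusted p = 0.127). *FANCI* shares a stretch with *POLG* in the annotation.

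The complex that untangles recombined chromosomes, made of the BLM helicase with its cofactors RMI1 and RMI2 and a topoisomerase, had 2 of its 3 genes in the set called. Over all tested genes, 6.14% were called higher in summer. *RMI1* had 6.69, 7.86, 11.9 and 13.4 scaled TPM in summer and 3.79, 3.68, 2.19 and 3.85 in winter. The lowest summer value was 6.69 and the highest winter value 3.85, and the mean was 2.95 times as high in summer (log2 fold change 1.3, standard error 0.29, limma adjusted p = 0.0113). It passed under all 22 alternatives to the processing that were run, at adjusted p values up to 0.0495. *RMI2* had 18.1, 23.8, 28.1 and 18.7 scaled TPM in summer and 5.48, 18.7, 10.2 and 6.28 in winter. Winter replicate 3 lay among the summer libraries while the other 3 winter libraries lay below them (log2 fold change 1.18, standard error 0.34, limma adjusted p = 0.0319), and it no longer passed with any 1 of the 4 summer libraries, winter replicate 1 or winter replicate 5 left out, at adjusted p values up to 0.0835. *BLM* had 4.57, 2.47, 4.70 and 2.92 scaled TPM in summer and 1.38, 1.93, 0.889 and 1.98 in winter. Every summer value exceeded every winter value, with an adjusted p of 0.0530 (log2 fold change 0.86, standard error 0.28). *BLM* shares 26478 bases with a long noncoding RNA in the annotation.

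In mismatch repair, *EXO1* passed and the recognition and endonuclease subunits did not. *EXO1*, the exonuclease that removes the mismatched strand and also resects broken ends, had 3.27, 2.30, 3.16 and 2.22 scaled TPM in summer and 0.131, 1.28, 0.254 and 1.17 in winter. Winter replicates 1 and 4 were near 0 and replicates 3 and 5 at about 1.2, the mean being 3.86 times as high in summer (log2 fold change 1.19, standard error 0.30, limma adjusted p = 0.0204). Without summer replicate 1 the adjusted p was 0.0632. *MSH6*, which recognises single mismatches, was the most abundant gene of the set, with 33.8, 31.2, 38.0 and 29.4 scaled TPM in summer and 24.8, 29.9, 25 and 22.4 in winter. Winter replicate 3 lay just above summer replicate 5 (log2 fold change 0.36, standard error 0.16, limma adjusted p = 0.131, 95% interval 0.01 to 0.72). *MSH3*, which recognises larger loops, ranged over 17.8 to 21.4 scaled TPM in summer and 15.4 to 18.3 in winter, the smallest relative spread of the set in each season (log2 fold change 0.25, standard error 0.17, limma adjusted p = 0.312, 95% interval -0.12 to 0.61). *PMS2*, the endonuclease subunit, was at 2.56 to 3.78 scaled TPM in summer and 1.96 to 5.32 in winter, with a log2 fold change of 0.01 (95% interval -0.64 to 0.66) whose sign turned under several alternatives. The intervals of *MSH6*, *MSH3* and *PMS2* exclude a 2-fold change on this scale. *MSH6* overlaps *FBXO11* (34 bases) and a long noncoding RNA (11257 bases) in the annotation.

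Of the 6 checkpoint genes, *CHEK1* passed (16.7%, against 11.0% of all genes). This kinase acts downstream of ATR when forks stall and had 6.57, 5.27, 8.84 and 5.51 scaled TPM in summer and 2.97, 4.76, 1.72 and 2.07 in winter. The seasons did not overlap, though winter replicate 3 came close to the lowest summer value (log2 fold change 1.0, standard error 0.30, limma adjusted p = 0.0396). It no longer passed with any 1 library other than winter replicate 3 left out, at adjusted p values up to 0.0980. *CHEK2*, the kinase downstream of ATM, had 4.49, 3.31, 5.95 and 5.62 scaled TPM in summer and 3.43, 5.45, 2.90 and 1.72 in winter, with winter replicate 3 inside the summer range (log2 fold change 0.46, standard error 0.31, limma adjusted p = 0.322). *TOPBP1*, the activator of ATR, had 19.1, 17.9, 25.6 and 17.1 scaled TPM in summer and 11.5, 17.8, 9.54 and 11.8 in winter. Of the winter libraries, only replicate 3 reached into the summer range (log2 fold change 0.63, standard error 0.23, limma adjusted p = 0.0716), and without it the adjusted p was 0.0317. The upstream kinases *ATM* and *ATR* had small differences without overlap. *ATM* was at 2.97 to 4.17 scaled TPM in summer and 2.22 to 2.88 in winter (log2 fold change 0.35, 95% interval -0.17 to 0.87), and *ATR* at 2.03 to 2.70 and 1.05 to 1.83 (0.40, -0.13 to 0.93). *CLSPN*, the adaptor between ATR and CHEK1, overlapped between seasons at 2.09 to 5.20 and 1.42 to 3.48 scaled TPM (limma adjusted p = 0.343).

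*NEIL3*, a DNA glycosylase that unhooks some crosslinks at replication forks without the Fanconi proteins, had 4.93, 2.37, 3.07 and 3.85 scaled TPM in summer and 0.652, 1.74, 1.26 and 0 in winter. It had the largest log2 fold change of the set, from low levels that were listed at 0 in winter replicate 5 (log2 fold change 1.32, standard error 0.35, limma adjusted p = 0.0235). It missed the threshold with replicate 1 or 5 of either season left out, at adjusted p values up to 0.0742, and with a pseudocount of 0.1 (0.0618).

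Levels within the set spanned a wide range. Over all 8 libraries *MSH6* led with a mean of 29.3 ± 5.16 (SD, n = 8) scaled TPM, followed by *MSH3* (18.3 ± 2.24), *RAD54L* (16.6 ± 6.90), *TOPBP1* (16.3 ± 5.19) and *RMI2* (16.2 ± 8.15), and from *MSH3* on these neighbours lie within 1 SD of each other. At the other end stood *ATR* (1.92 ± 0.526), *EXO1* (1.72 ± 1.21), *BRCA2* (1.03 ± 0.531) and *FANCB* (0.345 ± 0.670). In winter 22 of the 34 genes had a mean under 5 scaled TPM, and in summer 16. By mean level, *RMI2* stood at rank 2 in summer and 8 in winter, *BARD1* at 20 and 29, and *PMS2* at 26 and 14.

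The set also varied between libraries of one season. Summed over the 34 genes, the level was 296, 284, 368 and 293 scaled TPM in summer and 166, 238, 169 and 186 in winter. Summer replicate 3 held the highest value of all 8 libraries for 21 of the 33 tested genes, although its mitochondrial share was within the winter range. Among the winter libraries, replicate 3 was highest for 18 genes and replicate 4 lowest for 13. Winter replicate 3 also had the highest summed level of DNA replication genes in winter (1284 scaled TPM against 750.3 to 1029.7), of mitosis genes (1291 against 739 to 837) of leukocyte markers (463 against 256 to 407) and of red blood cell markers (42452 against 566 to 8439.7), and the lowest of oocyte markers (2.12). Their part in its repair gene levels was not tested. By role, the summed level of the BLM complex genes was 29.4 to 44.7 scaled TPM in summer and 10.7 to 24.3 in winter, that of *FANCD2*, *FANCI* and *BRIP1* 24.5 to 34.5 and 11.6 to 15.9, and that of the Fanconi core complex 70.2 to 90.5 and 44.9 to 64.4, none of which overlap.

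**Figure D4:**
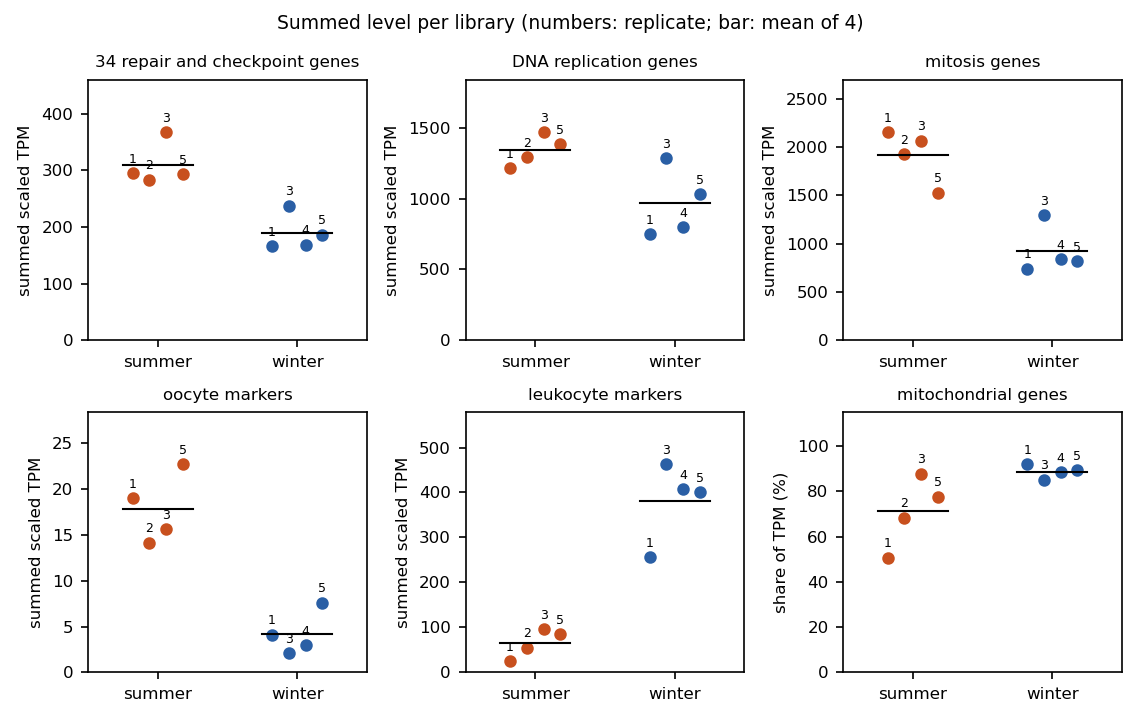
Summed level per library on the y axis (scaled TPM, or percent of TPM for mitochondrial genes), 1 point per library with its replicate number, by season, and the mean of 4 as a bar. The 34 repair and checkpoint genes, the mitosis genes and the oocyte markers are higher in every summer library, the leukocyte markers are lower, and winter replicate 3 lies highest of the winter libraries in the panels of the repair and checkpoint, DNA replication and mitosis genes.

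Other genes of the same pathways were counted from lists made by pathway. Over 74 tested genes of the recombination, Fanconi, mismatch repair and checkpoint lists, 17 passed higher in summer (23.0%) and 0 lower, with a median log2 fold change of 0.34 and 73.0% above 0. At an unadjusted p under 0.05 limma gave 28 higher and 3 lower. Among recombination genes, 7 of 33 passed (21.2%, against 11.0% of all genes). *RAD50*, the arm of the MRN complex that senses broken ends, had 55.5, 54.8, 55.0 and 46.5 scaled TPM in summer and 27.2, 29.4, 19.2 and 25.5 in winter (log2 fold change 1.05, standard error 0.17, limma adjusted p = 0.00287). *FIGNL1*, an ATPase of recombination, was at 4.01 to 6.70 and 0.693 to 2.42 scaled TPM (log2 fold change 1.33, adjusted p = 0.0125 by limma). Among Fanconi genes, 2 of 16 passed, a share of 12.5% that is close to that of all genes. Of these, *USP1*, the protease that removes ubiquitin from FANCD2 and FANCI, had 50.2, 42.1, 54.0 and 44.5 scaled TPM in summer and 15.1, 22.6, 16.6 and 16.0 in winter. Its seasons were far apart (log2 fold change 1.40, standard error 0.18, limma adjusted p = 0.00110).

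Of further mismatch repair genes, *PMS1* (log2 fold change 1.06, limma adjusted p = 0.0258) and *PCNA*, the sliding clamp (1.16, 0.00296), were higher. Of the checkpoint genes, 5 of 18 passed (27.8%, against 11.0% of all genes). Among them were *RAD17*, which loads the 9-1-1 clamp (1.15, 0.00833), *ETAA1*, another activator of ATR (1.10, 0.0209), and *TIPIN* of the fork protection complex (1.39, 0.0108), with log2 fold changes and limma adjusted p values in that order.

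Repair pathways that do not depend on a sister chromatid are given for comparison, without a test between lists. Of 16 end joining genes, 0 passed higher and 1 lower, the Ku-binding factor *PAXX* (-0.58), with a median of 0.10. At an unadjusted p under 0.05 limma gave 1 higher and 1 lower. Of 18 nucleotide excision repair genes, 0 passed higher (by limma's unadjusted p under 0.05, 3 higher and 3 lower) and 1 lower, the endonuclease subunit *ERCC1* (-0.59), with a median of -0.05. Of 17 base excision repair genes besides *NEIL3*, 1 passed higher, the thymine glycosylase *TDG* (0.88), and 0 lower (unadjusted p under 0.05 by limma in 6 higher and 0 lower), the median being 0.12. These medians stand beside 0.65 for the repair and checkpoint set and 0.03 for all tested genes, of which 11.0% passed higher and 10.2% lower.

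Lists of cell cycle genes, with which many of these repair genes are transcribed, had medians above 0 too. Of 36 DNA replication genes 9 passed higher (25%, against 11.0% of all genes) and 0 lower. At an unadjusted p under 0.05 limma gave 14 higher and 0 lower. The median was 0.46, all 36 values being above 0. Of 28 mitosis genes 24 passed higher (85.7%, against 11.0% of all genes), with a median of 1.16. The smallest adjusted p values were those of *CCNA2* (log2 fold change 1.56) and *ECT2* (1.42). Of the E2F, Rb and DREAM regulators, which repress or activate S and G2 phase genes, 4 of 19 passed higher, *FOXM1* (1.11), *E2F8* (1.40), *E2F5* (1.09) and *LIN9* (1.16). That is 21.1%, against 11.0% of all genes. The targets of p53, the transcription factor that damage signaling stabilises, moved both ways, as did all tested genes. Of 18, 1 passed higher (*PLK2*, 1.46) and 3 lower (*PHLDA3*, -2.75, *PMAIP1*, -1.83, and *RRM2B*, -0.96), with a median of 0.10. These shares were 5.56% higher and 16.7% lower, against 11.0% and 10.2% of all genes. *PHLDA3* and *PMAIP1* met the filter on low values in winter alone. The sum of the 34 repair genes was 21.2 to 25% of the sum of the DNA replication genes in summer and 18.1 to 22.1% in winter, and these ranges overlap.

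**Figure D5:**
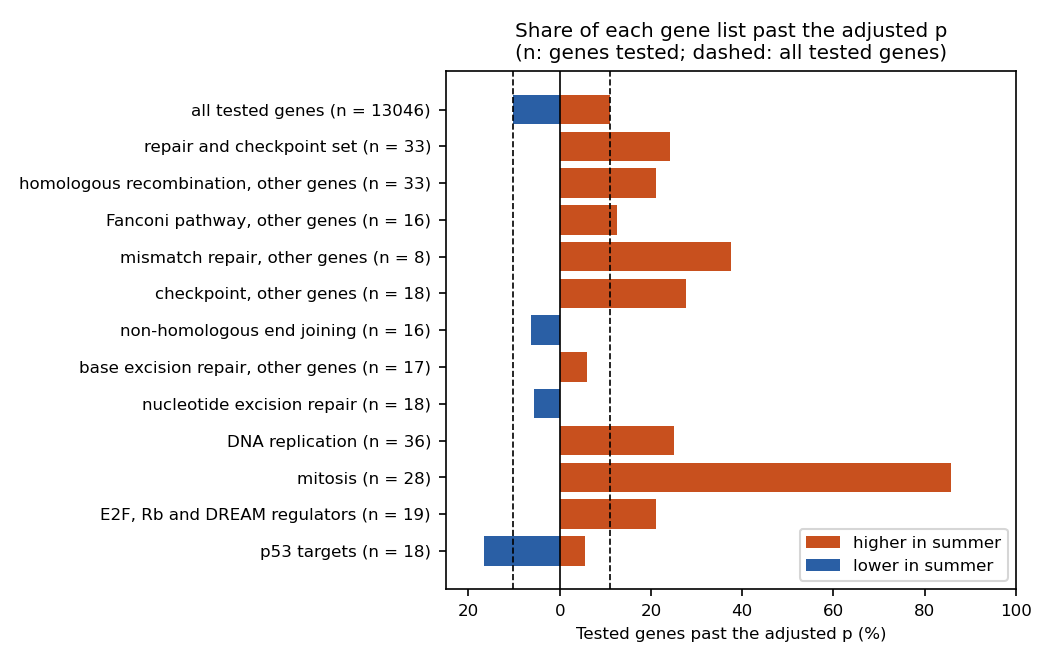
Share of the tested genes of each list past the adjusted p on the x axis in percent, to the right for genes higher and to the left for genes lower in summer, with dashed lines at the shares of all 13046 tested genes. The repair and checkpoint set stands at 24.2% higher, the DNA replication genes at 25% and the mitosis genes at 85.7%.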

How the data were processed

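Per the methods, the authors trimmed the reads and mapped them with CLC Genomics Workbench, which also applied TMM, while the submitters' processing notes name Bowtie2 (2.2.2), DESeq2 and ARS-UCD1.2. The deposited values are TPM, and their sum is 1000000 in every library, so the TMM factor is not in them. The authors' test on counts could not be repeated on TPM. Here the 13 mitochondrial genes were left out of the total, the rest set to 1000000 per library, and an unweighted TMM factor (30% of M and 5% of A trimmed) applied. The zFPKM, a z-score of log2 level against a library's main peak, had to exceed -3 in each library of at least 1 season. The limma test (3.58.1, R 4.3.3, eBayes with trend) used log2(scaled TPM + 1) and season alone. A call needed, besides the 2-fold change, the same zFPKM in the season where the gene was higher. The test was checked on simulated data. The methods describe both collections from the same group of cows. The test took the pools as independent, so its p-values measure the spread between these pools and take no account of shared cows.

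The repair genes and the lists were chosen with earlier results of these data known. All 34 genes are named. Of each further list at most the 4 tested genes of smallest adjusted p are named. Values per library were to be given for genes past the adjusted p and for the smallest adjusted p of each role. Those of the other genes were added after they were seen. A further 6 listed genes were not analysed here, and some results on single genes are not reported here. Genes were named from the deposited table, and overlaps between genes come from a RefSeq table of assembly ARS-UCD2.0, where all 34 matched and 14 overlap another gene. Alternatives covered scaling, pseudocount, filter, variance model, library weights, replicate block, mitochondrial share and leaving out each library.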

Additional observations from a re-analysis of the deposited data

Results flagged for a closer look

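Of 66 groups of 4 libraries (33 genes in each season), 3 held 1 library that stood apart from the other 3 by a gap above Dixon's critical value, as a share of the whole range, where chance flags about 1 group in 20. In summer, *PALB2* had 7.69 scaled TPM in replicate 5 against 4.11 to 4.57 in the others (gap 0.839 of the range). *FANCG* had 22.9 scaled TPM in summer replicate 3 against 13.5 to 14.2 (0.911). In winter, *RMI1* had 2.19 scaled TPM in replicate 4 against 3.68 to 3.85 (0.915), and it passed the limma test without that library too (adjusted p = 0.0238).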

How the results depend on the processing

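The median log2 fold change of the set stayed above 0 under all 22 alternatives. Of the genes past the adjusted p, 33 instead of 8 were found on the deposited TPM (17 called), where 7960 of all genes passed higher and 243 lower, against 1430 and 1337 on scaled TPM. Without the TMM factor, 19 passed and 14 were called, and 3011 of all genes passed higher and 891 lower. These scalings put the median of all genes at 0.89 and 0.28. Of the other repair, replication, mitosis and regulator genes, 56 of 225 passed higher, and 190 and 102 did under these 2 scalings. The number called at 2-fold was 7 with quantile normalization, 7 with a pseudocount of 0.5 and 0 with a pseudocount of 5, against 4. With the mitochondrial share as covariate, 1 gene passed and was called, and 4 of the other genes passed. Leaving out 1 library gave 2 to 12 genes past the adjusted p and 1 to 10 called. The log2 fold change of *PMS2* turned to -0.0069 with a pseudocount of 5, -0.0727 with library weights, -0.11 with the replicate block and -0.17 to 0.19 with 1 library left out, that of *FANCE* to -0.16 with the covariate and -0.0450 to 0.15 with 1 library left out, and that of *XRCC3* to -0.18 to 0.42 with 1 library left out. The cause of these changes was not tested.

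A replicate block in the model left 5 genes past the adjusted p, *BARD1*, *RAD54L*, *RMI1*, *RMI2* and *NEIL3*, 4 of them among the 8 without it, that is 15.2% of the set against 6.67% of all genes in that fit. Of the 8, *FANCI* (limma adjusted p = 0.0770), *FANCD2* (0.0866), *EXO1* (0.0866) and *CHEK1* (0.0924) missed the threshold with the block. Deviations from the season means correlated at 0.0396, 0.162 and 0.112 between libraries numbered 1, 3 and 5 (13046 genes), and winter replicate 1 correlated best with summer replicate 2 (0.0466). By the methods, when a summer oocyte replicate failed quality control, the matching replicates of winter oocytes and of granulosa cells were left out too. The granulosa cell libraries kept do not carry the same set of numbers in both seasons. No source says that a number marks the same cows in both seasons, so the numbers were not taken to pair the pools.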

Other observations

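Within single libraries, the proportions of some genes of one pathway are given here by season, as values without a test. The level of *EXO1* was 0.0738 to 0.0966 times that of *MSH6* in summer and 0.00531 to 0.0522 times in winter, without overlap. *BARD1* stood at 0.285 to 0.544 times *BRCA1* in summer and 0.104 to 0.386 times in winter, where winter replicate 3 lay within the summer range. *CHEK1* stood at 0.981 to 1.59 times *CHEK2* in summer and 0.591 to 1.2 times in winter, where winter replicate 5 lay within the summer range. *RMI1* stood at 1.47 to 4.60 times *BLM* in summer and 1.90 to 2.74 times in winter, with the winter range inside that of summer. *FANCD2* and *FANCI* together stood at 0.277 to 0.371 times the summed core complex in summer and 0.204 to 0.295 times in winter, where winter replicate 1 lay within the summer range. Both terms of each ratio are TPM, a level per transcript length, of the same library, so that neither the mitochondrial share nor the TMM factor enters them.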
